A study of Homo sapiens with 9 samples.

Results

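The transcripts of 10 kinase genes and kinase subunit genes that carry a signal from the cell surface or the cytosol to NF-κB were followed in HT-29 cells, an established human colorectal adenocarcinoma line. The genes were taken by name, with earlier results of these data known: CHUK, IKBKB and IKBKG (the IκB kinase complex), IKBKE and TBK1 (the IKK-related kinases), MAP3K7, TAB1 and TAB2 (the TAK1 complex), MAP3K8 (TPL2) and MAP3K14 (NIK). They are 10 of the 62710 gene identifiers in the deposited count table, all 10 had counts in every library, and all 10 passed the filter on low counts. TAB2 is listed under a second identifier that had 0 counts in every library and was left out.

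The cells were of wild-type genotype and were left non-stimulated, stimulated with 500 ng/mL flagellin or stimulated with 500 ng/mL ADP-heptose, in each case for 2.5 h, with 3 libraries of poly(A) RNA per condition. Flagellin, the protein of the bacterial flagellum, is sensed by the surface receptor TLR5. ADP-heptose, a sugar nucleotide of the lipopolysaccharide pathway of Gram-negative bacteria, is sensed in the cytosol by the kinase ALPK1, and the comparisons ask how the cells respond to ADP-heptose and how that response compares with the response to flagellin. The 3 non-stimulated libraries served as the reference for both stimuli, and these comparisons therefore share their control. A figure legend of the study describes the sequencing values as those of independent experiments, while the labels do not say which libraries belong to which experiment.

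In the canonical NF-κB pathway, ubiquitin chains built by adaptor complexes recruit TAK1 through TAB2 and the IKK complex through its regulatory subunit NEMO (IKBKG). TAK1 then activates the catalytic subunits IKKα (CHUK) and IKKβ (IKBKB), and IKKβ phosphorylates IκBα, which is degraded and frees NF-κB. In the non-canonical pathway, NIK is held low by constant degradation through TRAF3, TRAF2 and the BIRC2 and BIRC3 ligases. When NIK accumulates it activates IKKα, and the p100 protein encoded by NFKB2 is processed. TPL2 is kept inactive by p105, the product of NFKB1, until IKK releases it to drive the MEK and ERK kinases. TBK1 and IKKε phosphorylate interferon regulatory factors and are best known from antiviral signaling. These kinases are controlled largely at the protein level, and the measurements here are of their transcripts.

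The libraries held 35040844 to 37537705 counts in non-stimulated, 30770448 to 38304035 in flagellin-stimulated and 50054773 to 58272772 in ADP-heptose-stimulated cells. The epithelial markers EPCAM (30326 to 53263 counts) and KRT8 (132212 to 295648) were high in all 9 libraries. The intestinal factors CDX2 (17 to 48) and CDX1 (0 to 12) had few counts, under an annotation that is not given in the sources used here. Of 9 markers of leukocytes, fibroblasts and endothelium, CD3E, COL1A2 and CDH5 had 0 counts in every library and PTPRC had 0 to 2. LYZ (13826 to 23970) and COL1A1 (437 to 1019) were present. Levels in CPM are counts scaled to the library total after its adjustment by trimmed means (TMM). For the 9 markers, the summed level was 414 to 436 CPM in non-stimulated and 444 to 453 in flagellin-stimulated cells. It was 400 to 444 CPM in ADP-heptose-stimulated cells. The summed level of 8 epithelial markers was higher with ADP-heptose, at 8234 to 11522 CPM against 7455 to 7779 in non-stimulated and 7638 to 7918 in flagellin-stimulated cells, and its part in the results was not tested. KRT8 and KRT18 (50538 to 132297 counts) weigh most in this sum, which does not describe each marker. ADP-heptose replicate 3 stood apart from replicates 1 and 2: the SD of its log2 differences from them over 12168 genes was 0.378 and 0.383, against 0.135 between replicates 1 and 2 and 0.167 to 0.196 between libraries of the other conditions. Its shift moved with the total exon length of a gene. The median log2 difference was 0.289 for the quartile of genes with the shortest and −0.236 for that with the longest length. Among the kinase genes the shift was lowest for TAB2 (−0.49) and highest for MAP3K14 (0.27), both in quartile 3 of length, whose median was −0.067. The fold changes of the kinase genes after ADP-heptose are therefore given with and without ADP-heptose replicate 3. Those of other single genes include it unless stated. The ADP-heptose libraries were also the deepest, so that depth and condition cannot be told apart.

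After ADP-heptose, 3 of the 10 genes rose and 0 fell: IKBKE rose 3.22-fold, MAP3K8 1.89-fold and MAP3K14 1.46-fold. They encode an IKK-related kinase, a kinase that is freed from p105 by IKK and the kinase of the non-canonical pathway. None of the genes of the IKK complex itself or of the TAK1 complex passed the test. Over all 17412 genes tested, 7.48% were called higher and 4.42% lower at the same threshold, a Benjamini-Hochberg adjusted p under 0.05 in edgeR's quasi-likelihood test. With the 2-fold limit of the study added, 1 of the 10 genes (IKBKE) was called higher, against 2.89% of all genes. The median log2 fold change was 0.17 for the 10 genes and 0.0087 for all genes. Without ADP-heptose replicate 3, 4 genes were called higher and 0 lower, IKBKB being the fourth, while the shares of all genes called also increased, to 11.2% higher and 7.07% lower.

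After flagellin, 1 of the 10 genes rose, again IKBKE, by 1.41-fold, and 0 fell, where 0.368% of all genes were called higher and 0.0115% lower. At an unadjusted p under 0.05, 2 of the genes were higher (IKBKE and MAP3K8) and 0 lower, against 2.73% and 1.06% of all genes. DESeq2 also called 1 higher and 0 lower, where it called 97 genes higher and 3 lower of all 21016 it tested. No kinase gene was called with at least a 2-fold change after flagellin, where 0.212% of all genes were called higher and 0.0115% lower in edgeR. In the direct comparison of the stimuli, the same 3 genes that rose after ADP-heptose (IKBKE, MAP3K8 and MAP3K14) were higher after ADP-heptose than after flagellin, where 5.4% of all genes were called higher. Only IKBKE was called with at least a 2-fold difference between the stimuli, as were 2.06% of all genes.

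Counted by library, the 3 values after ADP-heptose exceeded the 3 non-stimulated values for 4 of the 10 genes (IKBKE, MAP3K8, MAP3K14 and TBK1), where this was so for 15.4% of all genes, and below them for 0, where this was so for 14.7%. The 3 values after flagellin exceeded the non-stimulated ones for IKBKE and MAP3K8 (7.66% of all genes) and below them for CHUK (5.19% of all genes).

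IKBKE, which encodes IKKε, the IKK-related kinase that is itself transcriptionally inducible in many cell types, changed most. The gene lies on chromosome 1 from 206470476 to 206496889 on the plus strand (GRCh38). Its normalized counts, that is counts scaled to a common library size, were 646, 647 and 595 in the non-stimulated libraries, 904, 875 and 886 after flagellin and 1967, 1985 and 2121 after ADP-heptose. The 3 conditions did not overlap, and replicate 3 of ADP-heptose was the highest of its group by a small margin. The log2 fold change was 1.69 after ADP-heptose (SE 0.075, 95% interval 1.52 to 1.85, edgeR adjusted p = 1.28e-08), placing IKBKE at rank 59 of all genes by p, and 1.65 without ADP-heptose replicate 3. Between ADP-heptose and flagellin the log2 difference was 1.19 (interval 1.03 to 1.35, adjusted p = 4.57e-07), and 1.16 without that library. The rise after flagellin was smaller, with a log2 fold change of 0.50 (SE 0.076, interval 0.33 to 0.66, adjusted p = 0.0111). That call was lost when any 1 of the 6 non-stimulated and flagellin libraries was left out, with log2 fold changes of 0.46 to 0.52 and adjusted p of 0.0567 to 0.0992, and it had an adjusted p of 2.73e-05 without ADP-heptose replicate 3. C1orf147, an opposite-strand gene that shares 156 exon bases with IKBKE, averaged 8.56 normalized counts in non-stimulated and 36.7 in ADP-heptose libraries, and since the strandedness of the counting is not given in the sources used here, reads of this stretch could be assigned to either gene.

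The genes whose log2 levels followed IKBKE most closely over the 9 libraries, among 12167 genes, were TRIM31 (Pearson r = 0.999), SBNO2 (0.999) and NFKB2 (0.998). TRIM31 encodes a ubiquitin ligase of the gut epithelium, and its log2 fold changes were 2.41 after ADP-heptose and 0.71 after flagellin. SBNO2 had log2 fold changes of 1.11 and 0.30, and NFKB2, which encodes the p100 precursor, of 3.24 and 1.08. Among the kinase genes themselves, r with IKBKE was 0.979 for MAP3K8 and 0.866 for MAP3K14. These r are descriptions: the 9 libraries form 3 conditions, so genes that respond in the same order have a high r.

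MAP3K8 encodes TPL2, the kinase that links IKK to ERK signaling. The gene lies on chromosome 10 from 30433937 to 30461833 on the plus strand. Its normalized counts were 660, 771 and 749 in the non-stimulated, 874, 894 and 935 in the flagellin and 1423, 1311 and 1380 in the ADP-heptose libraries, again without overlap between conditions. The rise after ADP-heptose had a log2 fold change of 0.92 (SE 0.084, interval 0.73 to 1.10, adjusted p = 1.04e-05), which fell short of 2-fold, and was 0.92 without ADP-heptose replicate 3. ADP-heptose exceeded flagellin by 0.61 on the log2 scale (interval 0.43 to 0.79, adjusted p = 4.26e-04), which was also the value without that library. After flagellin the log2 fold change was 0.31 (interval 0.13 to 0.49) with an adjusted p of 0.433, and of 16 alternatives it passed the test only when ADP-heptose replicate 3 was left out of the fit (0.30, adjusted p = 0.0426).

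MAP3K14, the gene of NIK on chromosome 17 from 45263119 to 45317145 on the minus strand, was the least abundant of the 3 genes that rose. It had normalized counts of 593, 499 and 506 in non-stimulated cells, 633, 505 and 490 with flagellin and 740, 715 and 876 with ADP-heptose. The ADP-heptose libraries were above all others, while the flagellin and non-stimulated libraries overlapped. The log2 fold change after ADP-heptose was 0.54 (SE 0.124, interval 0.27 to 0.81, adjusted p = 0.0132) and was 0.45 without ADP-heptose replicate 3 (adjusted p = 0.00166). Without non-stimulated replicate 2 or 3 it was 0.50 or 0.51 and no longer passed (adjusted p of 0.0632 and 0.0672). ADP-heptose exceeded flagellin by 0.52 (adjusted p = 0.0226; 0.43 and 0.00345 without ADP-heptose replicate 3), a call that was lost without flagellin replicate 2 (adjusted p = 0.105) or flagellin replicate 3 (adjusted p = 0.107). Flagellin and non-stimulated cells differed by 0.03 (interval −0.25 to 0.30, adjusted p = 1). The antisense gene MAP3K14-AS1, which shares 713 exon bases with MAP3K14, went from a mean normalized count of 97.2 to 69.1 after ADP-heptose.

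**Figure D1:**
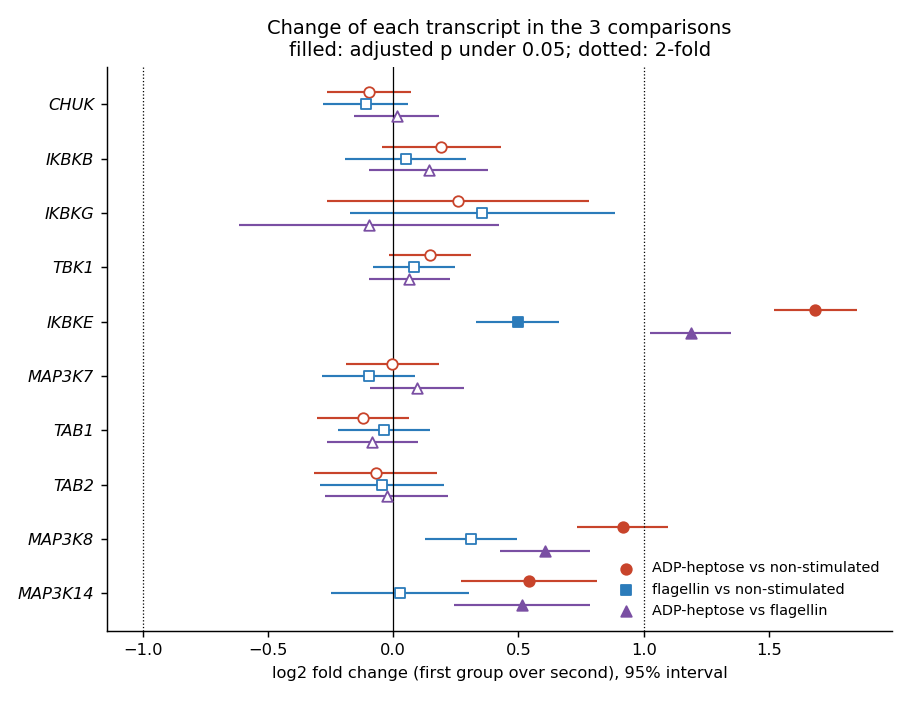
Log2 fold change of each transcript (horizontal axis) with its 95% interval in the comparisons ADP-heptose against non-stimulated, flagellin against non-stimulated and ADP-heptose against flagellin; filled symbols passed an adjusted p of 0.05 and dotted lines mark 2-fold. IKBKE passed in all 3 comparisons, MAP3K8 and MAP3K14 in those of ADP-heptose, and the intervals of the other 7 genes included 0.

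The sequence just upstream of RefSeq transcript starts of these genes was searched for the NF-κB consensus, the 10-base κB motif, on both strands. RefSeq (GRCh38.p14) gave 15 windows of 250 bases before a transcript start for 9 of the 10 genes, and a match was found for MAP3K8, which rose after ADP-heptose, and for TAB2, which did not pass the test. Such a match is common, being present in 9.96% of 35116 windows and for 11.8% of 27305 genes, and it describes the letters only. For MAP3K8 each of 3 windows held 1 match, at 2 distinct places. The matched stretches are shown with their 10 flanking bases on each side, the capitals marking the match, since they let the letters be compared with those of TAB2. The first MAP3K8 stretch lies at chr10:30433982-30434011 (plus strand), its match beginning 29 bases before the nearest RefSeq start, and the second at chr10:30434429-30434458, its match beginning 207 bases before another start. Both lie inside the span that GENCODE 29 gives MAP3K8, since these RefSeq starts are downstream of its first base. The TAB2 stretch, likewise inside the GENCODE 29 span of its gene (149218641 to 149411613), lies at chr6:149318188-149318217 (plus strand) and holds the first of 2 overlapping matches, 102 bases before a start.
MAP3K8, first: ggggagacgcGGAATTTCCCagcgcggggg
MAP3K8, second: tgggtgccccGGGGATTCCCatgcagaaat
TAB2: gtggcggagaGGGAGGCCCCccgagtcccc

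IKBKE, the gene with the largest change, had no match in its 250-base window, which lies at chr1:206470226-206470475 on the plus strand and ends at the base before the gene's first. The window is shown because these letters adjoin the start of the most changed transcript. That the motif is not in this window says nothing about sequences farther away.
IKBKE, upstream: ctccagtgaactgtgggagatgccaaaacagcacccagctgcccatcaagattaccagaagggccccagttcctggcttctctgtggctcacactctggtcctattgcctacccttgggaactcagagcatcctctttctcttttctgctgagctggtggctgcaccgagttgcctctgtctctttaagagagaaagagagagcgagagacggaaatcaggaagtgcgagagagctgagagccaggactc

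TBK1, the widely expressed relative of IKBKE, had normalized counts of 1251, 1185 and 1241 in non-stimulated cells, 1238, 1274 and 1386 with flagellin and 1408, 1330 and 1334 with ADP-heptose. The ADP-heptose libraries lay above the non-stimulated ones, but the log2 fold change of 0.15 (interval −0.01 to 0.31) did not pass the test (adjusted p = 0.244), nor did the 0.16 without ADP-heptose replicate 3 (adjusted p = 0.112). The opposite-strand gene AC135279.3, which shares 702 exon bases with TBK1, averaged 5.37 normalized counts in non-stimulated and 23.6 in ADP-heptose libraries.

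Within a library, the ratio of IKBKE to TBK1 needs no scaling between libraries. Per kilobase of exon, IKBKE stood at 0.602 to 0.686 of TBK1 in the non-stimulated libraries, 0.803 to 0.917 after flagellin and 1.755 to 1.996 after ADP-heptose, so that the order of these related kinases differed between ADP-heptose and the other conditions. The mean log2 ratio differed by 1.54 between ADP-heptose and non-stimulated cells (1.49 without ADP-heptose replicate 3) and by 0.42 between flagellin and non-stimulated cells, each with a two-sided exact permutation p of 0.1 (0.263 after adjustment over 21 tests), which is the smallest that 3 libraries against 3 can give.

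The genes of the IKK complex did not pass the test with either stimulus. CHUK (IKKα) had the highest level of the complex, with normalized counts of 2744 to 2867 in non-stimulated cells, 2476 to 2720 with flagellin and 2358 to 2761 with ADP-heptose. The log2 fold changes were −0.11 after flagellin (interval −0.28 to 0.06, adjusted p = 1), where the 3 libraries lay just below the non-stimulated ones, and −0.10 after ADP-heptose (interval −0.26 to 0.07, adjusted p = 0.467; −0.02 and 0.831 without ADP-heptose replicate 3).

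IKBKB (IKKβ) had normalized counts of 961, 782 and 872 in non-stimulated cells, 975, 786 and 948 with flagellin and 1061, 1021 and 907 with ADP-heptose, with overlap between conditions. The log2 fold change after ADP-heptose was 0.19 (interval −0.05 to 0.43, adjusted p = 0.299), and without ADP-heptose replicate 3 it was 0.26 and passed (adjusted p = 0.0420). The log2 ratio of IKBKB to CHUK within a library was higher after ADP-heptose than without stimulation in all 3 libraries, by a mean of 0.29 with or without ADP-heptose replicate 3 (exact permutation p = 0.1, 0.263 adjusted). The ADP-heptose libraries overlapped those of flagellin in this ratio (mean difference 0.13, exact permutation p = 0.4). Of the 7 ratios it was the most uniform among the 3 ADP-heptose libraries, with an SD of 0.013. Its SD was 0.182 in the non-stimulated and 0.176 in the flagellin libraries.

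IKBKG (NEMO) was the most variable gene, with normalized counts of 383, 322 and 440 in non-stimulated cells, 290, 557 and 624 with flagellin and 391, 553 and 424 with ADP-heptose. The spread within each condition covered the difference between conditions, and the intervals were wide: the log2 fold change was 0.26 after ADP-heptose (interval −0.26 to 0.78, adjusted p = 0.529; 0.31 and 0.667 without replicate 3) and 0.36 after flagellin (−0.17 to 0.88, adjusted p = 1). A rise of 1.72-fold lay within the interval of the ADP-heptose comparison, so a moderate change was not detectable here. The gene has a near-identical pseudogene, IKBKGP1, between which reads can be split, and IKBKGP1 had 12, 12 and 111 counts in the non-stimulated, 23, 24 and 20 in the flagellin and 247, 31 and 47 in the ADP-heptose libraries. With both counted as 1 gene, a choice made after the data were seen, the log2 fold changes were 0.34 (adjusted p = 0.404) and 0.26 (adjusted p = 1). The values of IKBKG are therefore uncertain.

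The TAK1 complex showed no called change either. MAP3K7, the TAK1 gene, had normalized counts of 1566 to 1649 in non-stimulated cells, 1444 to 1598 with flagellin and 1432 to 1740 with ADP-heptose. Its log2 fold change after ADP-heptose was −0.0035 (interval −0.19 to 0.18, adjusted p = 0.984), an interval that runs from 0.877 to 1.13 of the non-stimulated level, and it was 0.07 without replicate 3 (adjusted p = 0.531).

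TAB1, the TAK1-binding protein that activates the kinase, had 1147 to 1219 in non-stimulated cells, 1112 to 1173 with flagellin and 1005 to 1204 with ADP-heptose, with a log2 fold change of −0.12 after ADP-heptose (adjusted p = 0.392). Without replicate 3 it was −0.20 (adjusted p = 0.0541). With library totals in place of the scaling by trimmed means it was −0.26 and passed (adjusted p = 0.0377), a setting under which the median of all genes was −0.13. TAB2, the subunit that binds ubiquitin chains, had 2951 to 3145 in non-stimulated cells, 2913 to 3018 with flagellin and 3124, 3316 and 2296 with ADP-heptose, replicate 3 being the low library. Its log2 fold change after ADP-heptose was −0.07 with replicate 3 (interval −0.32 to 0.18, adjusted p = 0.733) and 0.08 without it (adjusted p = 0.362). The log2 ratio of TAB2 to MAP3K7 within a library overlapped between all conditions. That of TAB1 to MAP3K7 overlapped through ADP-heptose replicate 3 (0.45), since replicates 1 and 2 (0.08 and −0.09) lay below every non-stimulated and flagellin library, of which the lowest had 0.17. Its difference from non-stimulated cells was −0.12 with replicate 3 (exact permutation p = 0.6) and −0.27 without it. Without ADP-heptose replicate 2 it was 0.0036.

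**Figure D2:**
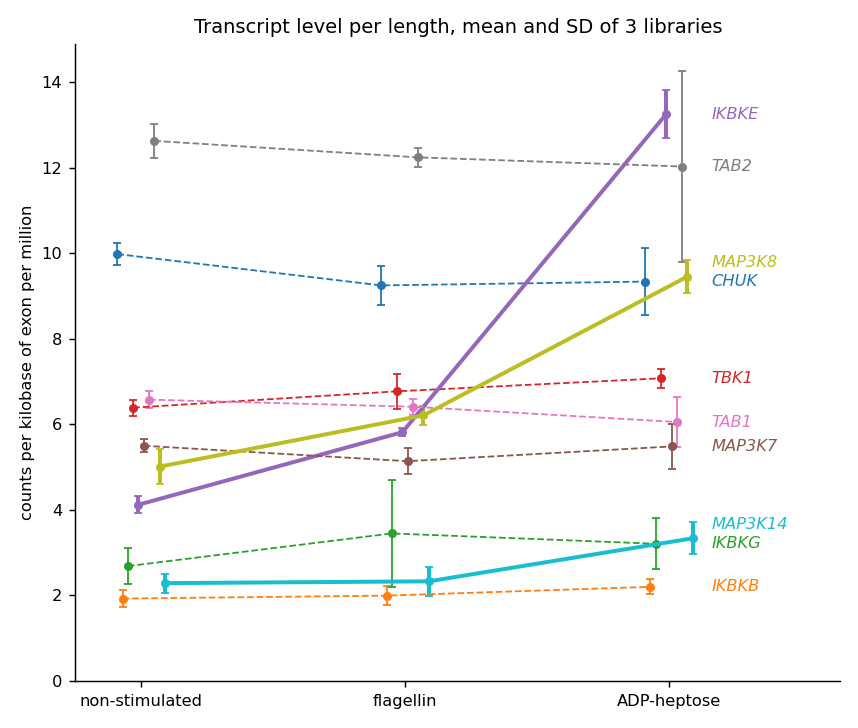
Level of each transcript in CPM per kilobase of exon (vertical axis) in the 3 conditions, as the mean and SD of 3 libraries, with solid lines for the genes that rose after ADP-heptose and dashed lines for the rest. IKBKE went from the seventh place (4.12) to the first (13.3), overlapping TAB2 there, while CHUK and TAB2 led in the other conditions.

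Compared per length, the 10 transcripts spanned a limited range. In non-stimulated cells TAB2 was highest with 12.6 ± 0.406 CPM per kilobase of exon (SD, n = 3), followed by CHUK (9.98 ± 0.252), TAB1 (6.58 ± 0.203), TBK1 (6.39 ± 0.186), MAP3K7 (5.50 ± 0.149), MAP3K8 (5.01 ± 0.404) and IKBKE (4.12 ± 0.196). IKBKG (2.68 ± 0.415), MAP3K14 (2.29 ± 0.224) and IKBKB (1.92 ± 0.198) were lowest. Only TAB1 and TBK1, and IKBKG and MAP3K14, overlapped with their neighbor over the libraries.

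After ADP-heptose the order was IKBKE (13.3 ± 0.550), TAB2 (12.0 ± 2.24), MAP3K8 (9.45 ± 0.388), CHUK (9.33 ± 0.776), TBK1 (7.07 ± 0.229), TAB1 (6.05 ± 0.579), MAP3K7 (5.48 ± 0.532), MAP3K14 (3.33 ± 0.373), IKBKG (3.21 ± 0.601) and IKBKB (2.199 ± 0.177). IKBKE overlapped TAB2, TAB2 overlapped MAP3K8 and MAP3K8 overlapped CHUK. IKBKE thus stood in the upper group of levels after ADP-heptose, against the sixth place after flagellin (5.81 ± 0.094). IKBKB, the catalytic subunit of the canonical pathway, had the lowest mean per length in all 3 conditions and overlapped MAP3K14 after flagellin. Its place depends on its exon length of 11.241 kb, the longest of the 10 genes. By mean normalized count in non-stimulated cells, IKBKB (872) was above MAP3K8 (727), IKBKE (629), MAP3K14 (533) and IKBKG (382). These levels rest on exon lengths from GENCODE 29, with the exons of all transcripts of a gene merged. The order of the genes per length depends on that choice, since the annotation used for counting is not given in the sources used here.

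The known partners of these kinases were then described. Of 15 partner genes, 9 rose and 0 fell after ADP-heptose (median log2 change 0.57), where 7.48% of all genes were called higher and 4.42% lower. BIRC3, which encodes a ligase that targets NIK, rose by 4.93 on the log2 scale (adjusted p = 1.64e-10), and its relative BIRC2 by 1.11 (adjusted p = 3.31e-07). NFKB2 rose by 3.24 (adjusted p = 1.72e-10) and NFKB1, which encodes p105, by 2.01 (adjusted p = 2.10e-08). After flagellin 3 of the 15 rose, with BIRC3 at 2.08 and NFKB2 at 1.08, and 0 fell, where 0.368% of all genes were called higher. Without ADP-heptose replicate 3, 10 rose and 1 fell after ADP-heptose and 6 rose after flagellin, with 11.2% and 0.918% of all genes called higher in these fits. The gene that fell was TBKBP1 (−1.19), an adaptor of TBK1 named here after its value was seen. With all 9 libraries in the edgeR fit its log2 change was −0.68 and was not called (adjusted p = 0.300). It averaged only 59.2 normalized counts in non-stimulated and 37.3 in ADP-heptose libraries, with overlap.

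The partners that hold 2 of the kinases in check were set against them within each library. The log2 ratio of MAP3K8 to NFKB1 was −0.97 ± 0.116 (SD, n = 3) in non-stimulated cells, −1.30 ± 0.103 with flagellin and −2.05 ± 0.200 with ADP-heptose. All libraries of each stimulus lay below the non-stimulated ones, by means of −0.33 and −1.09 (exact permutation p = 0.1, 0.263 adjusted; −1.20 for ADP-heptose without replicate 3), and after ADP-heptose the called rise of NFKB1 was larger than that of MAP3K8. MAP3K14 and TRAF3, the adaptor through which NIK is degraded, both rose after ADP-heptose, TRAF3 by 0.93 (adjusted p = 1.12e-05). Their log2 ratio was −0.82 ± 0.115 without stimulation and −1.20 ± 0.318 after ADP-heptose, with overlap through ADP-heptose replicate 3 (exact permutation p = 0.3). Replicates 1 and 2 (−1.32 and −1.44) lay below all non-stimulated libraries and replicate 3 (−0.84) did not, and the difference between the means was −0.38 with and −0.56 without replicate 3. After flagellin it was −1.11 ± 0.168, with all 3 libraries below the non-stimulated ones (exact permutation p = 0.1, 0.263 adjusted).

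**Figure D3:**
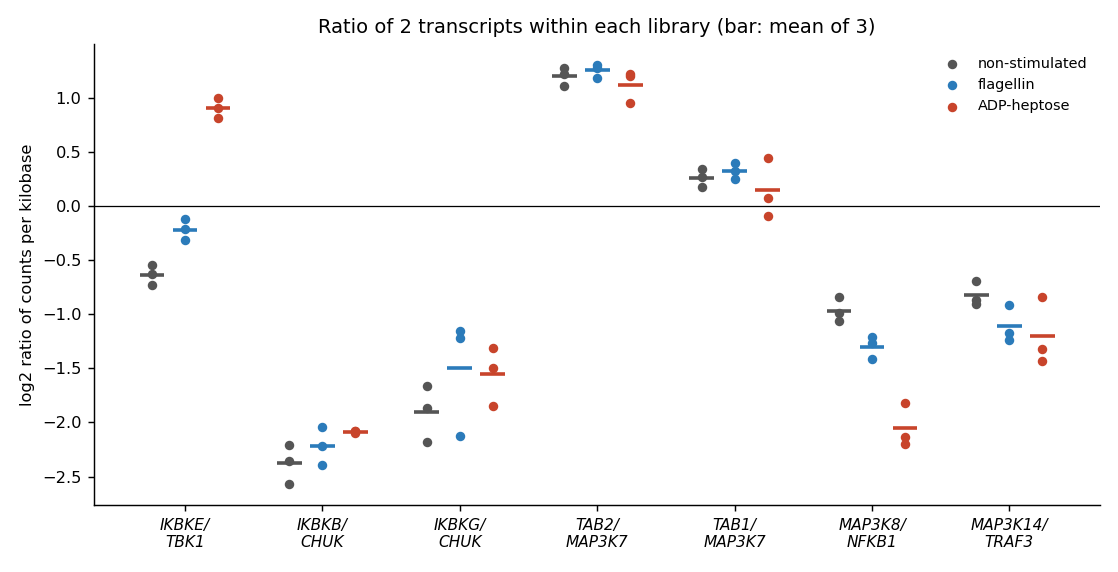
Log2 ratio of 2 transcripts per kilobase of exon within each library (vertical axis) for 7 pairs, with a point for each library and a bar for the mean of 3. The IKBKE to TBK1 ratio was above 0 in the ADP-heptose libraries alone, and the MAP3K8 to NFKB1 ratio was lowest there.

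The substrates of the kinases made up the list with the largest median change. Of 9 substrate genes, 8 rose and 0 fell after ADP-heptose (median log2 change 1.48), against 7.48% of all genes higher, and without replicate 3 all 9 rose, against 11.2%. NFKBIA, which encodes IκBα, the substrate of IKKβ, rose by 3.94 (adjusted p = 3.74e-12) and NFKBIE, which encodes IκBε, by 3.17 (adjusted p = 1.28e-08). NFKB1 and NFKB2 belong to this list as well as to the partners. After flagellin 4 of the 9 rose (0.368% of all genes), with a median of 0.26, among them NFKBIA (0.68, adjusted p = 2.39e-04) and NFKBIE (0.81, adjusted p = 0.0245).

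The remaining lists had fewer calls, to be read against the 7.48% of all genes called higher and the 4.42% called lower after ADP-heptose. Of 6 genes for the enzymes that build ubiquitin chains upstream of TAK1 and IKK, 1 rose after ADP-heptose (RBCK1, 0.37, adjusted p = 0.0201, named after its value was seen) and 0 fell, with a median of 0.17 (0.03 without replicate 3), and 0 were called after flagellin. RNF31, also named after its value was seen, averaged only 5.73 normalized counts in non-stimulated and 13.2 in ADP-heptose libraries. Its log2 change of 1.19 was not called, and at such counts a change could be missed. Of 14 other MAP3K genes, 2 rose and 2 fell after ADP-heptose, with a median of −0.0076, and 0 were called after flagellin. The 4 were MAP3K11 (0.63), MAP3K13 (0.39), MAP3K4 (−0.38) and MAP3K21 (−0.43), again named after their values were seen. Without replicate 3 this list gave 3 higher and 2 lower. Of 15 MAPK cascade genes downstream, 14 could be tested, and after ADP-heptose 1 rose and 1 fell: MAP2K3, a kinase of the p38 branch, rose by 1.28 (adjusted p = 3.11e-07) and MAP2K6, another kinase of that branch named after its value was seen, fell by 0.45 on the log2 scale (adjusted p = 0.0430). After flagellin 0 of the 14 were called, and 1 was called higher when ADP-heptose replicate 3 was left out of the fit. Between the stimuli, 9 of the partners and 8 of the substrates were higher after ADP-heptose than after flagellin and 0 were lower, while of the other MAP3K genes 2 were higher and 2 lower. Among all genes 5.4% were higher and 2.76% lower in this comparison.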

How the data were processed

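Poly(A) RNA of 9 HT-29 libraries was sequenced by the authors as paired 150-base reads, aligned with HISAT2 and counted per gene with featureCounts (versions not given). The deposited table holds the authors' raw counts, 1 column per library. The genome build, annotation, strandedness and treatment of multi-mapping reads are not given in the sources used here. Of 62710 identifiers on 62972 lines, 232 were repeated and used once. GENCODE 29 held 58274 of them (92.9%) and gave positions on GRCh38 and exon lengths.

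Groups were taken from the sample labels. One edgeR 4.0.16 fit (R 4.3.3) of all 9 libraries used TMM scaling, filterByExpr and robust quasi-likelihood F tests, with Benjamini-Hochberg adjustment over 17412 genes. Normalized counts were scaled to 1 common size, the geometric mean over libraries. Pair ratios were compared by two-sided exact permutation tests, adjusted over 21 tests. The square root of the common dispersion was 0.109, so the spread between libraries and not counting error limits genes of these counts. Alternatives were DESeq2 1.42.0, its size factors, library totals, other filters, fits of 6 libraries, a replicate block, each library left out and, added after seeing the data, IKBKG summed with IKBKGP1. Figures were drawn with matplotlib 3.10.9.

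The 10 genes and the lists were chosen with earlier results of these data known. Named beside them were the partners in the pairs, from each list at most 4 genes called at an adjusted p under 0.05 and at least 2-fold, and the 3 genes with the highest correlation to a kinase gene called in that way (mean log2 CPM of at least 1). Promoter windows came from RefSeq, GRCh38.p14. Other RNA and protein assays of the study were not analysed here.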

Additional observations from a re-analysis of the deposited data

How the results depend on the processing

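Of 483 values of single kinase genes under the alternatives, 448 kept their direction and their side of the threshold, 19 that were not called changed sign and stayed uncalled, 13 kept the direction but lost the call and 3 gained one. IKBKE and MAP3K8 after ADP-heptose, against either group, were called under each of 16 alternatives. With the 2-fold limit added, the number of genes called higher became 1 after ADP-heptose (from 3), 0 after flagellin (from 1) and 1 for ADP-heptose against flagellin (from 3). With library totals, 1 gene (TAB1) was called lower after ADP-heptose (from 0), and all genes split into 917 higher and 1886 lower (1302 and 770 with TMM), the cause of which was not tested. MAP3K14 between the stimuli lost its call with library totals (adjusted p = 0.0547) and with 6 libraries in the fit (0.0593). Leaving out 1 library in turn gave 0 to 2 kinase genes higher after flagellin. Over all genes, 38 to 165 of 17926 to 18014 tested were called higher in these fits, against 64 of 17412 in the main fit. The correlations of the 9 same-numbered pairs, with group means removed, ran from −0.379 to 0.222, with 2 over 0.1. Non-stimulated replicate 2 and ADP-heptose replicate 3, of unlike number, had 0.43. These values cannot show whether same-numbered libraries share an experiment, because each group was centred over only 3 libraries and ADP-heptose replicate 3 stood apart. With the replicate number as a block, 0 kinase genes were called higher after flagellin (IKBKE 0.50, adjusted p = 0.0716), where 45 of all 17412 genes were. Leaving out flagellin replicate 1 moved the flagellin difference of the IKBKG to CHUK log2 ratio from 0.41 to 0.72. IKBKG, with the fewest counts and a near-identical copy, had the widest interval.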
